A study of Danio rerio with 20 samples.

Results

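The 6 genes cp, fetub, serpinc1, c8g, mbl2 and a2m2d encode proteins that the liver secretes into blood plasma and were followed in liver tumors and normal livers of zebrafish (Danio rerio). They were chosen as the probes whose platform annotation gives 1 of these symbols and no other, which gave 6 probes, 1 for each gene, out of 5356 features with 1 symbol on the array. The genes were picked with the tumor against normal results of these arrays known. Their differences between the groups are therefore given as a description without a test, and they support nothing by themselves. The groups were 10 arrays of liver tumors, induced by carcinogens per the labels, and 10 arrays of normal zebrafish liver. Each liver sample carried the dye Cy5 and was hybridised against normal liver RNA carrying Cy3, the common reference of the 20 arrays. The labels used here give no strain, age, sex or carcinogen, and leave unsaid if every array is a fish of its own, so the spread between arrays may be partly technical. Values are log2 ratios to the reference, likely liver over reference. Differences are given in log2 units as tumor minus normal, and if the ratio ran the other way every sign would turn.

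Hepatocytes make most plasma proteins, thread them into the endoplasmic reticulum, glycosylate them and release them through the Golgi apparatus into the blood. Among the 6 genes, cp encodes ceruloplasmin, the copper-carrying ferroxidase of plasma. Fetub encodes fetuin-B, a cystatin-type inhibitor that in mice blocks the egg protease ovastacin, and serpinc1 encodes antithrombin, which inhibits thrombin and other clotting proteases. C8g encodes the gamma chain of complement component C8, a part of the membrane attack complex. Mbl2 encodes a mannose-binding lectin, a collectin that starts the lectin pathway of complement, and a2m2d encodes a protease-trapping protein of the alpha-2-macroglobulin family, to which complement C3 is related. In a RefSeq gene table of assembly GRCz12tu, fetub and cp lie on the same chromosome with 7 protein-coding genes between them, and 7 genes carry an a2m2 name.

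All 16512 probes had a value on every array, and the deposited log2 ratios of any pair of arrays correlated above 0 over the probes (lowest r 0.077, highest 0.823). Brightness is not in the table, so the percentage of values that are ratios of small whole-number intensities was taken as the share of dim spots. It averaged 1.98% on tumor arrays (0.66% to 7.17%) and 5.86% on normal arrays (2.56% to 7.87%), so the groups differ in it. The hepatocyte markers fabp10a, tfa, apoba, apoa1a, rbp4 and hnf4a were measured, and their mean log2 ratio ran from -3.03 to -1.42 on tumor arrays and from -0.72 to 0.42 on normal arrays. Of the 6 markers 4 fell in tumors with limma, against 4.94% of all features. Tfa (-0.63, adjusted p = 0.244) and hnf4a (-0.09, adjusted p = 0.87) did not pass that test. Tfa, apoba, apoa1a and rbp4 are plasma protein genes and are counted again among those below. Bulk RNA cannot tell fewer hepatocytes from less RNA per hepatocyte.

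The 6 genes fell into 4 that stood lower on most tumor arrays and 2, mbl2 and a2m2d, whose groups overlapped. Of the 10 tumors, 8 had cp, fetub, serpinc1 and c8g all below every normal array. Tumor replicate 5 had 2 of the 4 genes there, cp and fetub, and tumor replicate 9 had 0. Over all 15780 features, 2.18% had at least 8 of 10 tumor arrays below all normal arrays, 1.15% had at least 9, 0.526% had groups without overlap in either direction, and 10.8% passed the limma test at an adjusted p of 0.05 (4.94% lower and 5.91% higher in tumors). Since the genes were chosen on this contrast, nothing is read from their count against these shares.

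Ceruloplasmin, cp, had log2 ratios from -3.13 to -0.14 on the tumor arrays (median -2.38) and from -0.37 to 0.91 on the normal arrays (median 0.24). Tumor replicate 9 alone reached into the normal range, and the other 9 tumors lay below every normal liver. The means were -2.05 ± 1.02 in tumors and 0.24 ± 0.39 in normal livers (SD, n = 10 each), a difference of -2.29 ± 0.32 (SE), with normal liver 4.88-fold above tumor.

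Fetub showed the largest difference of the 6 genes, -2.94 ± 0.38 (SE), 22nd from the lowest of 15780 features. Its ratios ran from -3.55 to 0.56 on tumor arrays (median -2.15), against 0.07 to 1.86 on normal arrays (median 0.81), so that all normal livers stood above the reference and 9 of 10 tumors below it. The highest tumor, replicate 9 at 0.56, stood far from the next tumor at -1.48. Normal liver was 7.69-fold above tumor.

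Antithrombin, serpinc1, was the most even of the 6 genes in normal liver and, after a2m2d, the most uneven in tumors. Its ratios ran from -3.90 to -0.22 on tumor arrays (median -2.47) and from -0.46 to 0.50 on normal arrays (median -0.16). Tumor replicates 5 and 9, at -0.22 and -0.41, lay inside the normal range, and the other 8 lay below it. The means were -2.20 ± 1.29 in tumors and -0.11 ± 0.28 in normal livers (SD, n = 10 each), a difference of -2.09 ± 0.39 (SE).

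The complement gene c8g differed least of these 4. Its ratios ran from -3.29 to 0.19 on tumor arrays (median -1.1) and from -0.62 to 1.01 on normal arrays (median 0.28). As with serpinc1, tumor replicates 5 and 9 (0.19 and -0.54) lay in the normal range and 8 tumors below it. Tumor replicates 10 and 1, at -3.29 and -2.96, were the lowest, with the next tumor at -1.67. The difference was -1.52 ± 0.35 (SE), with normal liver 2.87-fold above tumor.

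**Figure D1:**
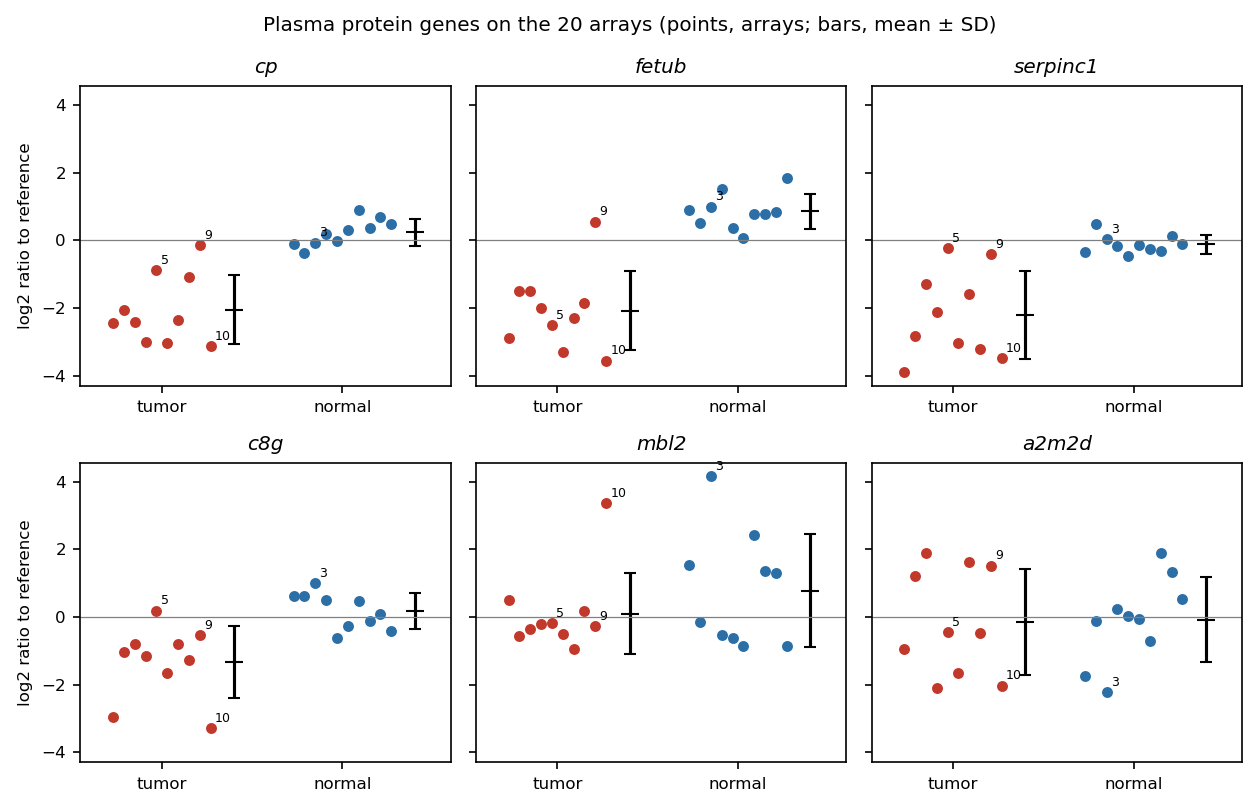
Log2 ratio to the reference (vertical axis) of the 6 genes on each tumor array (red, left) and normal array (blue, right), in order of replicate number, with the mean ± SD of each group in black. Tumor replicates 5, 9 and 10 and normal replicate 3 are numbered. For cp, fetub, serpinc1 and c8g, 8 or 9 tumors lie below all normal livers, while the groups of mbl2 and a2m2d overlap.

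Within the tumors, the correlation with the dim share was 0.500 for cp (rho 0.236), 0.623 for fetub (rho 0.261), 0.310 for serpinc1 (rho -0.042) and -0.0093 for c8g (rho 0.055). Tumor replicate 9, the array with ratios in the normal range for all 4 genes, had a dim share of 7.17%, against 0.66% to 3.39% on the other 9 tumor arrays. In a fit that adjusts for the dim share the 4 differences were smaller but kept their sign, at -1.62 ± 0.43 for cp, -2.16 ± 0.50 for fetub, -1.67 ± 0.55 for serpinc1 and -1.36 ± 0.51 for c8g (SE). Leaving out tumor replicate 9 gave differences of -2.50 for cp, -3.24 for fetub, -2.29 for serpinc1 and -1.61 for c8g.

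The 4 genes varied more among tumors than among normal livers. The SD in tumors was 4.68 times that in normal livers for serpinc1, 2.61 times for cp, 2.23 times for fetub and 2.00 times for c8g. The median ratio over the 5356 named features was 0.925, and 0.149% of them had a ratio as large as that of serpinc1 and 7.79% as large as that of c8g. For mbl2 the ratio was 0.723 and for a2m2d 1.26, with large SDs in both groups. Among named features mbl2 ranked 157th in tumors and 62nd in normal livers by SD, and a2m2d 45th and 148th. A larger SD in tumors was not particular to the 4 genes. Other plasma protein genes, among them hp, ahsg1, apoba, tfa, apoeb, kng1, igf1 and apom, had it too. Others, among them cst3, selenop2, c3a.1, c3a.2 and c3a.3, had a smaller SD in tumors.

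With all arrays, the 4 genes correlated with each other in tumors, and less in normal livers, though the difference was not tested. Their 6 pairwise correlations ran from 0.575 to 0.853 over the 10 tumors and from -0.291 to 0.429 over the 10 normal livers. The pattern was not particular to these 4 genes. A2m2d correlated with them at 0.481 to 0.675 in tumors and at -0.632 to 0.413 in normal livers. These and the later correlations are descriptions over 10 arrays that share a reference, and no p is given. The closest pair was serpinc1 and c8g in tumors (Pearson r 0.853, Spearman rho 0.952), and r was 0.795 without the 2 arrays farthest from the median of serpinc1. The pair of cp and serpinc1 in tumors rested on 2 arrays, since r changed from 0.588 to -0.049 without the 2 farthest on cp, and the pair of fetub and serpinc1 had 0.585 and 0.228. Without the 2 farthest arrays, cp and serpinc1 had r 0.501 in normal livers, and fetub and serpinc1 -0.076. Cp and fetub had 0.601 in tumors and 0.166 in normal livers, and cp and c8g 0.371 and -0.435. Fetub and c8g had 0.401 and 0.480, and serpinc1 and c8g had 0.052 in normal livers. So r without these arrays was not lower in normal livers for cp with serpinc1 or fetub with c8g. The mean of the hepatocyte markers correlated with cp at r 0.898 in tumors (rho 0.903, 0.785 without the 2 farthest arrays) and at -0.332 in normal livers (rho -0.394, 0.030 without the 2 farthest). For fetub, serpinc1 and c8g r was 0.678, 0.598 and 0.601 in tumors, and 0.478, 0.088 and 0.671 without the 2 arrays farthest on each gene. In normal livers it was -0.340, 0.588 and 0.592, and -0.076, 0.097 and 0.555 without the 2 arrays farthest on each gene. For a2m2d it was 0.590 in tumors (0.843 without the 2 farthest) and -0.059 in normal livers.

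Mbl2 did not follow that pattern. Its ratios ran from -0.93 to 3.36 on tumor arrays (median -0.24) and from -0.87 to 4.17 on normal arrays (median 0.57). Tumor replicate 10 stood at 3.36 and the other 9 tumors between -0.93 and 0.51. In normal liver, replicate 3 stood at 4.17, replicate 7 at 2.41, and replicates 1, 8 and 9 between 1.31 and 1.54, while the other 5 lay between -0.87 and -0.16. The groups overlapped and the difference was -0.67 ± 0.60 (SE). It was -0.30 without normal replicate 3, -1.03 without tumor replicate 10 and 0.03 ± 0.86 after adjustment for the dim share.

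The arrays with high mbl2 were also those with high ratios of intestine markers. The mean of the 6 measured intestine markers ran from -0.83 to 0.96 in tumors and from -0.86 to 1.90 in normal livers. Of the 6, 1 fell in tumors, rbp2a (-3.25 ± 0.40, adjusted p = 4.58e-05 with limma), and 0 rose, against 4.94% and 5.91% of all features. Over the 10 tumors the mean of the 6 correlated with mbl2 at r 0.805 (rho 0.709, 0.479 without the 2 arrays farthest on mbl2), and over the 10 normal livers at r 0.959 (rho 0.903, 0.932 without those 2). With rbp2a left out of the mean, r was 0.804 in tumors (rho 0.612, 0.356 without those 2) and 0.948 in normal livers (rho 0.855, 0.937 without those 2). Vil1, which encodes villin of the brush border, stood at 3.32 on tumor replicate 10 and 3.33 on normal replicate 3. Fabp2, the intestinal fatty acid binding protein, stood at 1.98 and 3.30 on the same arrays. The exocrine pancreas markers correlated with mbl2 in normal livers as well (r 0.757, rho 0.745). In tumors the leukocyte markers did so at r 0.848 with all arrays but at -0.015 without the 2 farthest. The part of other tissue in the mbl2 values was not tested.

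Of all named features, the gene most like mbl2 within the groups was bco1, which encodes the enzyme that cleaves beta-carotene to retinal. The correlation was 0.928 over the 10 tumors (rho 0.794, 0.741 without the 2 arrays farthest on mbl2) and 0.955 over the 10 normal livers (rho 0.927, 0.970 without those 2). Bco1 did not pass the test between tumor and normal (-0.41 ± 0.24, adjusted p = 0.297 with limma).

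**Figure D2:**
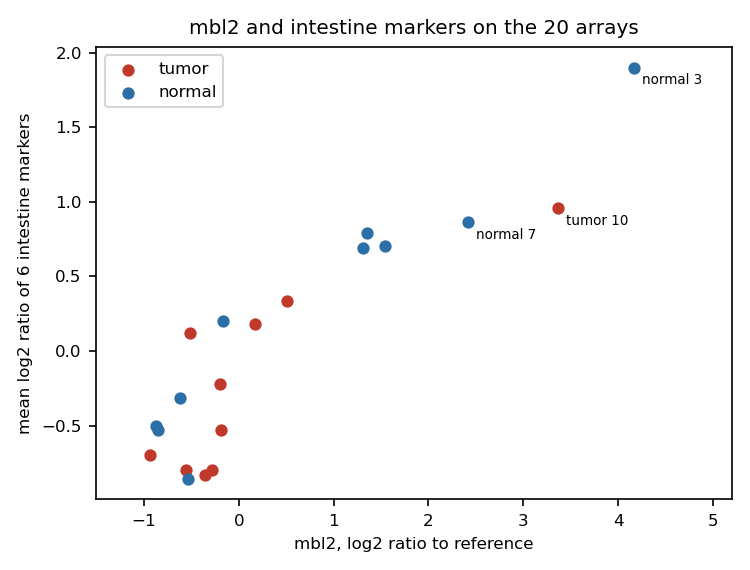
Log2 ratio of mbl2 (horizontal axis) against the mean log2 ratio of 6 intestine markers (vertical axis) on the 10 tumor arrays (red) and the 10 normal arrays (blue). Normal replicates 3 and 7 and tumor replicate 10 are named, and stand highest on both axes.

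A2m2d covered the same range in both groups. Its ratios ran from -2.09 to 1.89 on tumor arrays (median -0.47) and from -2.22 to 1.89 on normal arrays (median -0.01), with a difference of -0.06 ± 0.58 (SE). Tumor replicates 3, 7, 9 and 2 stood between 1.2 and 1.89 and the other 6 between -2.09 and -0.45, so the tumors left a gap between -0.45 and 1.2. Normal replicates 8 and 9 stood at 1.89 and 1.33, and normal replicates 3 and 1 at -2.22 and -1.75. The sign of the difference was not stable, at 0.16 without tumor replicate 4 and -0.30 without normal replicate 3.

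The 3 complement C3 genes on the array, c3a.1, c3a.2 and c3a.3, were the named features most like a2m2d within the groups. Complement C3 is the central protein of the complement cascade and, like alpha-2-macroglobulin, carries an internal thioester bond. Over the tumors a2m2d correlated at 0.917 with c3a.1, 0.819 with c3a.2 and 0.828 with c3a.3 (rho 0.818, 0.733 and 0.842), and 0.925, 0.855 and 0.772 without the 2 arrays farthest on a2m2d. Over the normal livers the values were 0.762, 0.915 and 0.918 (rho 0.685, 0.927 and 0.939), and 0.459, 0.817 and 0.853 without those 2. By r with a2m2d among 5355 other named features, c3a.1 ranked 2 in tumors and 123 in normal livers, c3a.2 ranked 19 and 7, and c3a.3 ranked 14 and 6. No difference between the groups passed the test for c3a.1 (-0.44 ± 0.54), c3a.2 (-0.09 ± 0.64) or c3a.3 (-0.72 ± 0.56), with limma adjusted p = 0.641, 0.95 and 0.439. A2m2d itself was not tested. The sign of c3a.2 turned without any 1 of 7 arrays. Whether these probes also hybridise to related transcripts was not tested.

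A further probe is annotated to a2m2d together with another gene of the a2m2 family and was not counted. It followed the a2m2d probe closely over the tumors (r 0.955, rho 0.842, 0.925 without the 2 farthest arrays). Over the normal livers r was 0.565 (rho 0.661, 0.056 without the 2 farthest), and 0.983 over the 9 arrays without normal replicate 9, on which a2m2d stood at 1.33 and the shared probe at -4.04. The difference between the groups was 0.85 ± 0.77 (SE) for the shared probe, against -0.06 ± 0.58 for the a2m2d probe.

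**Figure D3:**
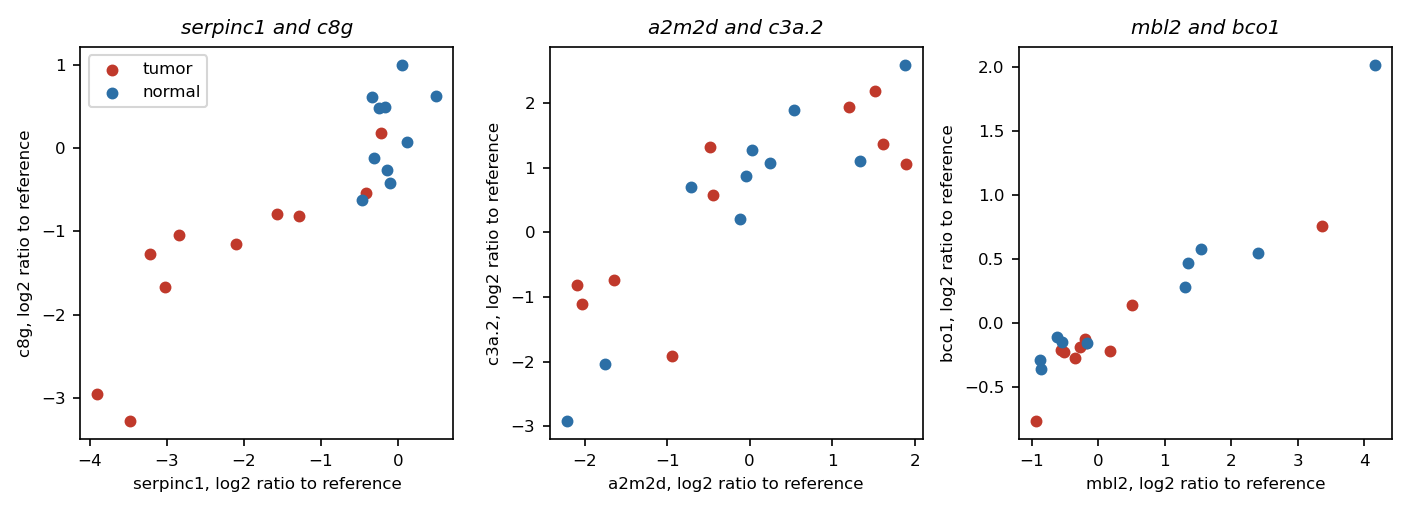
Log2 ratios to the reference of serpinc1 and c8g (left), a2m2d and c3a.2 (middle) and mbl2 and bco1 (right) on the 10 tumor arrays (red) and the 10 normal arrays (blue). Tumor and normal points of a2m2d cover the same range. Those of mbl2 overlap, with tumor replicate 10 far above the other tumors. Most tumor points of serpinc1 lie left of all normal points.

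C8g, a part of the same cascade as mbl2, correlated with it below 0 in tumors and above 0 in normal livers. The correlation of c8g with mbl2 was -0.741 in tumors (rho -0.491), where it rested on 2 arrays (0.046 without them), and 0.671 in normal livers (rho 0.685, 0.40 without the 2 farthest). The difference between these correlations was not tested. By mean correlation to all 6 genes over the deviations of the 20 arrays from their group means, the most alike named feature was itih3b.2, of the inter-alpha-trypsin inhibitor heavy chains, another family of secreted liver proteins (mean r 0.535). It fell in tumors (-1.72 ± 0.38, adjusted p = 0.00512 with limma). Next came si:rp71-15k1.1 (0.527), the gluconeogenic enzyme gene fbp1b (0.517), si:ch1073-126c3.2 (0.495) and the sterol carrier protein gene scp2a (0.490). The least alike were api5, an inhibitor of apoptosis (-0.467), the DNA repair gene parp1 (-0.454) and the membrane-bound metalloprotease gene mmp14b (-0.451).

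Other genes of plasma proteins were compared next, since the 6 genes stand for a larger class. Of 26 measured genes in lists of coagulation, complement, protease inhibitors, carriers, other secreted proteins and apolipoproteins, 8 fell and 1 rose, against 4.94% and 5.91% of all features. The difference was below 0 for 24 of the 26, and for 8033 of the 15780 features. The median difference of the 26 was -1.03, against -0.01 over all features and -1.81 over the 6 genes. After adjustment for the dim share 2 of the 26 fell, rbp4 and apoa1a, against 43 of the 15780 features, and 25 of the 26 kept their sign.

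Among the carriers 4 of 9 fell and 0 rose, against 4.94% and 5.91% of all features. Rbp4, the retinol carrier of plasma, stood at a mean of -4.89 in tumors and -0.86 in normal livers (-4.03 ± 0.36, adjusted p = 1.4e-06 with limma), and all 10 tumors lay below all normal livers. Tcn2, of the cobalamin carriers, also had all 10 tumors below all normal livers (-1.72 ± 0.24, adjusted p = 0.000144). The haemopexin gene hpxb, whose product binds haem, fell by 1.49 (SE 0.34, adjusted p = 0.00752), and haptoglobin, hp, which binds free haemoglobin, by 1.11 (SE 0.30, adjusted p = 0.0195). Transferrin, tfa, the iron carrier, had a difference of -0.63 ± 0.34 that did not pass (adjusted p = 0.244).

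Of 5 apolipoprotein genes 3 fell and 0 rose, against 4.94% and 5.91% of all features. Those that fell were apoa1a (-3.63 ± 0.44), apoba (-1.49 ± 0.28) and apom (-1.41 ± 0.39), with limma adjusted p = 3.52e-05, 0.00187 and 0.0241. Apom missed the threshold in the rank-sum test (adjusted p = 0.0523), with array weights (adjusted p = 0.0735) and without either pair of arrays left out together. The 2 probes of apoba disagreed, at -3.30 and 0.33. Of the 2 measured genes of the last group, igf1, the insulin-like growth factor that the liver releases, fell by 1.99 (SE 0.36, adjusted p = 0.00127), and fn1a, a fibronectin gene, rose by 1.36 (SE 0.43, adjusted p = 0.044 with limma). Fn1a missed the threshold without any 1 of 12 arrays.

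In the coagulation, complement and protease inhibitor lists no gene passed with all arrays as deposited. The 6 genes themselves were left out of all lists and are not in these counts. The lists were not complete either, since itih3b.2, itih3b.1 and prozb were measured but stood in none of them. Of these, itih3b.2 fell in tumors (-1.72 ± 0.38, adjusted p = 0.00512 with limma). Limma called 0 of 5 coagulation genes, 0 of 3 complement genes and 0 of 3 protease inhibitor genes, kng1 being in 2 of these lists, and the rank-sum test called 0 of these 10 genes. Over all features limma called 10.8%, so 0 calls in lists this short says little. In limma, 4 of the 10 had an unadjusted p under 0.05. Kininogen, kng1, differed by -1.26 ± 0.42 (adjusted p = 0.0545), coagulation factor 7, f7, by -0.94 ± 0.32 (adjusted p = 0.0632) and tissue factor pathway inhibitor, tfpia, by 0.51 ± 0.19 (adjusted p = 0.0971). F7 passed with quantile normalisation (-0.99, adjusted p = 0.0029), with the larger-variance features alone (adjusted p = 0.0469) and without any 1 of tumor replicates 4, 5 and 9. Kng1 passed with the larger-variance features (adjusted p = 0.034) and without any 1 of tumor replicates 3, 5 and 9. The fetuin-A gene ahsg1, a relative of fetub, differed by -1.31 ± 0.62 (adjusted p = 0.179), and it ran from -4.14 to 1.82 on tumor arrays and from -0.71 to 1.57 on normal arrays. The cystatin gene cst3 differed by -0.36 ± 0.25 (adjusted p = 0.363).

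**Figure D4:**
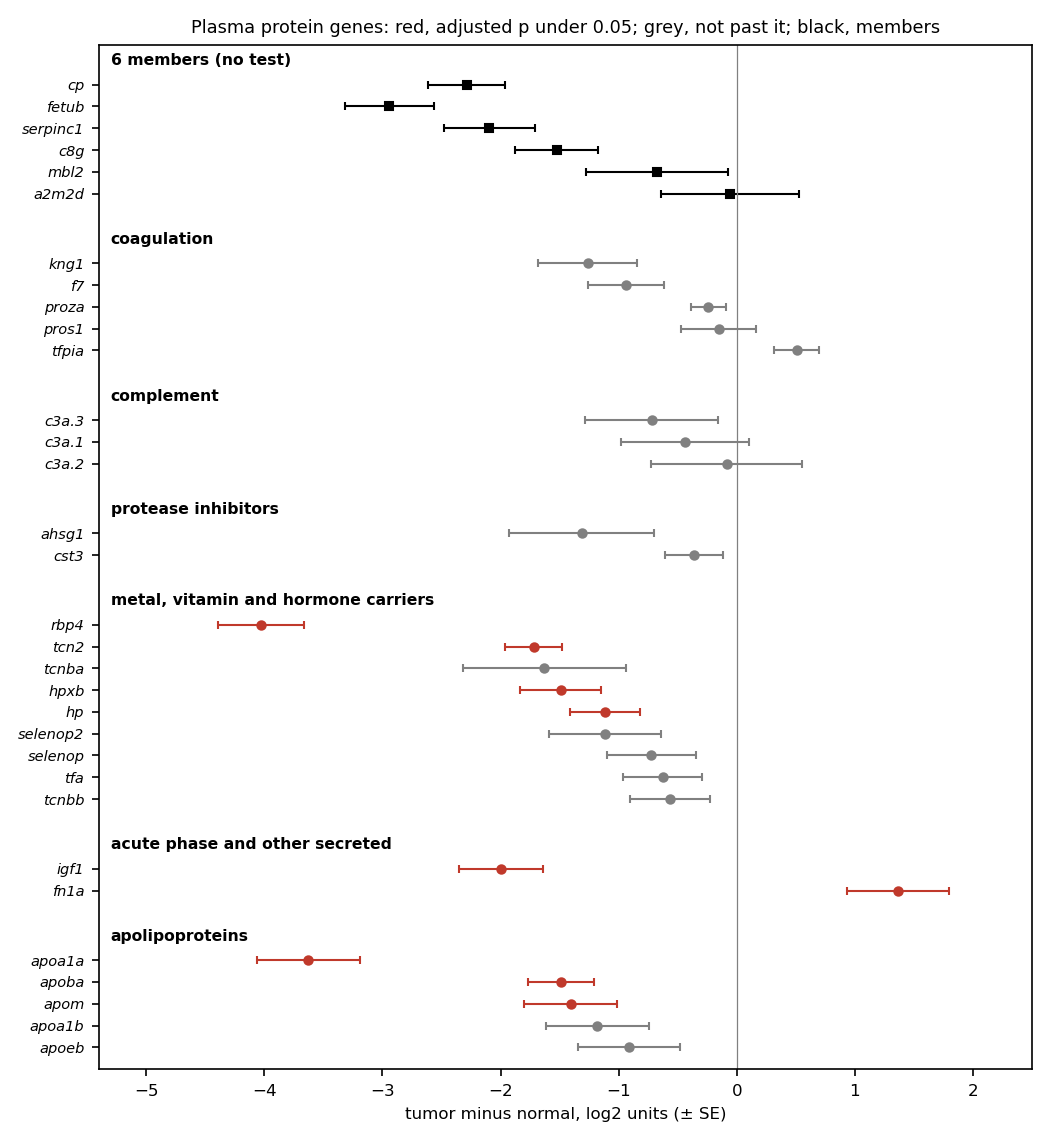
Tumor minus normal difference in log2 units (horizontal axis, bars are the SE of the limma fit) of the 6 genes (black squares, no test) and of the 26 measured genes in the plasma protein lists. The lists do not hold every plasma protein gene on the array. Red circles passed an adjusted p of 0.05 and grey circles did not. All but fn1a and tfpia lie below 0.

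Genes of the secretory route, through which plasma proteins leave the cell, were measured as well. Of 37 measured genes 10 rose and 1 fell, against 5.91% and 4.94% of all features. Their median difference was 0.23, against -0.01 over all features. In translocation and N-glycosylation 3 of 16 rose: alg2, a mannosyltransferase of the glycan precursor (0.99 ± 0.21), the translocation protein gene tram1 (0.94 ± 0.27) and sec61a1b of the Sec61 channel (0.76 ± 0.22), with limma adjusted p = 0.00366, 0.0292 and 0.0317. Sec61a1b missed the threshold without any 1 of 9 arrays, with the replicate block (adjusted p = 0.0589) and in the rank-sum test (adjusted p = 0.0845), and tram1 without any 1 of 6 arrays. In transport from the endoplasmic reticulum to the Golgi apparatus 7 of 21 rose, and those of smallest p were the cargo receptor gene tmed9 (1.02 ± 0.20), the coatomer gene arcn1a (0.62 ± 0.13) and the vesicle coat gene sec23a (0.53 ± 0.11), with limma adjusted p = 0.00254, 0.00388 and 0.0046. The 1 gene that fell was sec23b, a paralog of sec23a (-0.85 ± 0.24, adjusted p = 0.0237). The 21 also include the transcription factor gene creb3l3a, which did not pass (-0.72 ± 0.39, limma adjusted p = 0.247). After adjustment for the dim share limma called 0 of these 37 genes (6 at an unadjusted p under 0.05), and 31 kept their sign. That fit called only 54 of all 15780 features, so 0 calls says little about these genes.

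Of 20 measured liver transcription factors 4 fell and 2 rose, against 4.94% and 5.91% of all features. Pparab, a fatty acid sensor (-0.91 ± 0.21), prox1a (-0.64 ± 0.15), foxa2 (-1.08 ± 0.27) and foxa1 (-0.91 ± 0.24) fell, with limma adjusted p = 0.00911, 0.00996, 0.0118 and 0.016. Cebpg (0.64 ± 0.15) and foxa3 (1.1 ± 0.29) rose, with limma adjusted p = 0.00757 and 0.019. Hnf4a, a regulator of many plasma protein genes, differed by -0.09 ± 0.29 (adjusted p = 0.87), and cebpa, known to act on the same class of genes, by 0.97 ± 0.33 (adjusted p = 0.062). Cebpa passed the threshold when each array was centred on its median (1.0, adjusted p = 0.0485), with quantile normalisation (1.13, adjusted p = 0.0162), with the larger-variance features (adjusted p = 0.0452) and with array weights (1.43, adjusted p = 0.00118). It also passed without any 1 of tumor replicates 1, 7 and 10 and normal replicate 9, and without either pair of arrays left out together. The sign of hnf4a turned with array weights (0.075), without normal replicate 9 (0.0056), without either pair of arrays (0.19 and 0.22) and without tumor replicate 10 (0.15). Of 10 genes listed for the interleukin 6 and STAT3 pathway, which drives the acute phase response of hepatocytes, limma called 0 and the rank-sum test 0, with 2 at an unadjusted p under 0.05. Among them ptpn11a differed by 0.34 ± 0.12 (adjusted p = 0.0788), stat3 by 0.64 ± 0.25 (adjusted p = 0.105) and il11ra by -0.40 ± 0.23 (adjusted p = 0.278). The 10 also include il1rapl1a, of the interleukin 1 receptor family (0.18 ± 0.16, limma adjusted p = 0.525). Ptpn11a passed with quantile normalisation (adjusted p = 0.0419), array weights (adjusted p = 0.00592) and without normal replicate 9 (adjusted p = 0.0491), and il11ra with array weights (adjusted p = 0.0148). After adjustment for the dim share limma called 0 of these 30 regulator genes (5 at an unadjusted p under 0.05), against 54 of all 15780 features.

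**Figure D5:**
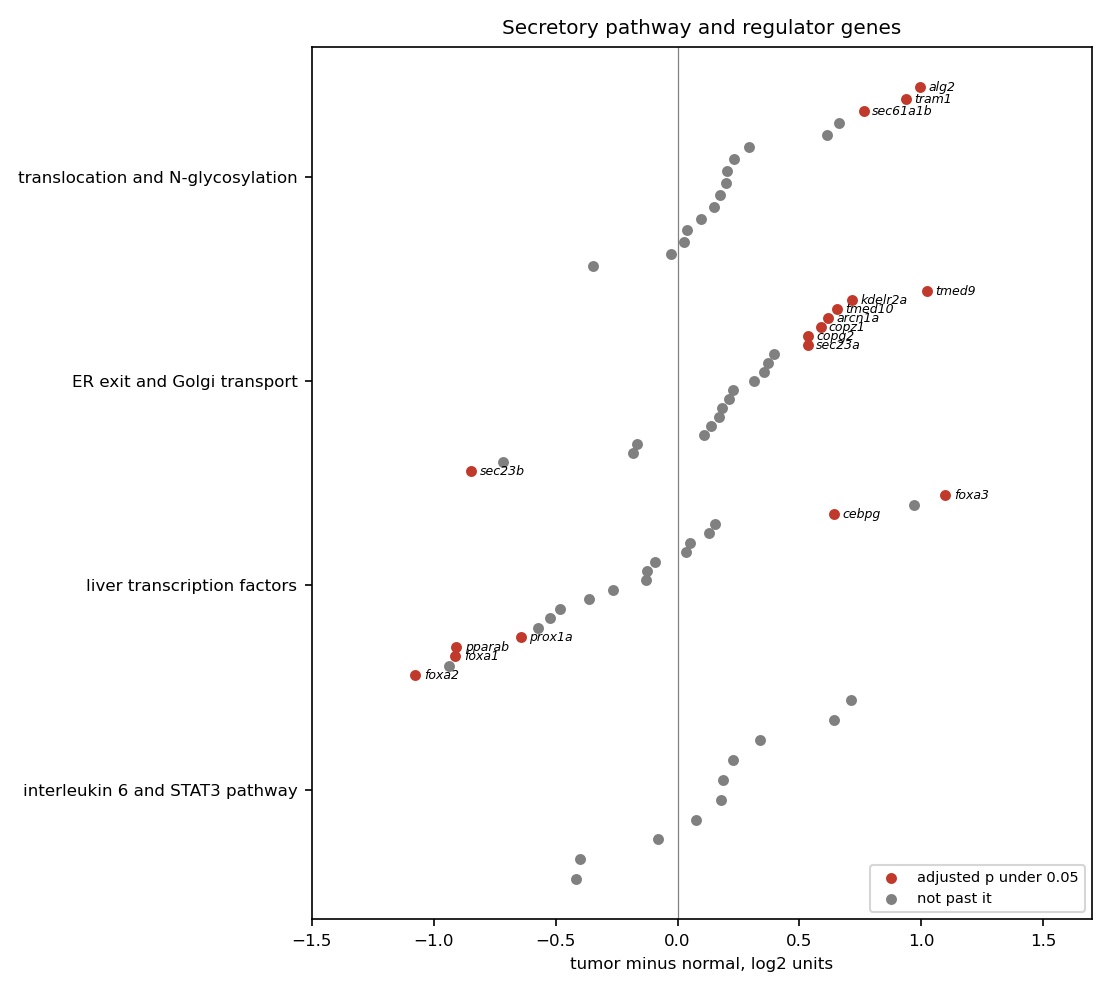
Tumor minus normal difference in log2 units (horizontal axis) of each measured gene in 2 lists of the secretory route and 2 lists of regulators, sorted within a list. Red points passed an adjusted p of 0.05 and are named, and grey points did not. In the secretory lists 10 of 37 points are red and above 0 and 1 is red and below, against 5.91% and 4.94% of all features.

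Markers of other tissues were read on the same arrays, and their counts stand beside 4.94% of all features that fell and 5.91% that rose with limma. Limma and the rank-sum test called 0 of 4 exocrine pancreas markers, 3 of which had an unadjusted p under 0.05, with list means from -4.91 to 0.90 in tumors and from -3.28 to 2.71 in normal livers. In tumors their mean correlated below 0 with fetub (r -0.818, rho -0.818, -0.637 without the 2 arrays farthest on fetub), and also with serpinc1 (r -0.709) and a2m2d (r -0.761). In normal livers r was -0.481 for fetub, 0.287 for serpinc1 and -0.332 for a2m2d. The intestine markers correlated below 0 in tumors with c8g (r -0.851, rho -0.806, -0.586 without the 2 farthest) and a2m2d (r -0.817, rho -0.806, -0.763 without the 2 farthest), against 0.594 and -0.409 in normal livers. With rbp2a left out of these markers, r in tumors was -0.860 for c8g (rho -0.745, -0.462 without the 2 farthest) and -0.662 for a2m2d (rho -0.576, -0.596 without the 2 farthest). Of 11 stellate cell and fibroblast markers 3 rose and 1 fell, and their mean ran from 0.06 to 2.73 in tumors and from -0.14 to 0.89 in normal livers. On tumor replicates 10 and 1, where c8g was lowest, this mean was 2.73 and 2.37, against 1.19 or less on the other 8 tumors. Its r with c8g in tumors rested on 2 arrays, at -0.794 (rho -0.442) and 0.094 without the 2 farthest, against 0.334 in normal livers. Of 14 leukocyte markers limma called 0, the rank-sum test called 0, and 1 had an unadjusted p under 0.05. Their mean was highest on tumor replicate 10, at 2.30. Of 11 ovary markers 2 rose and 1 fell, with a median difference of 1.42, and their mean ran from -1.70 to 1.38 in tumors and from -2.64 to 1.65 in normal livers. The oocyte gene zpcx (1.42 ± 0.46, adjusted p = 0.0476) and org (2.04 ± 0.64, adjusted p = 0.0433) rose, and nanos3 fell (-0.65 ± 0.16, adjusted p = 0.0101). The ovary mean correlated with mbl2 at 0.650 in tumors (rho 0.297, 0.286 without the 2 farthest) and 0.322 in normal livers. Of 10 bile duct and epithelium markers 1 rose, epcam (1.32 ± 0.33, adjusted p = 0.0121), and their mean ran from 0.10 to 1.35 in tumors and from -0.88 to 0.88 in normal livers. In tumors it correlated below 0 with c8g (r -0.842, rho -0.709, -0.304 without the 2 farthest) and serpinc1 (r -0.663, rho -0.782, -0.745 without the 2 farthest), against 0.298 and -0.261 in normal livers. Over the tumors the mean of 4 endothelium markers correlated above 0 with cp (r 0.514), fetub (0.678), serpinc1 (0.632) and c8g (0.842). Without the 2 arrays farthest on each gene r was 0.277, 0.425, 0.538 and 0.133. Over the normal livers with all arrays r was 0.315, 0.049, -0.202 and -0.416. Of 7 erythrocyte markers 1 fell and 0 rose. With the same 4 genes in tumors, r of their mean was 0.126, 0.464, 0.378 and 0.214. The part of these cells in the plasma protein values was not tested.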

How the data were processed

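Liver RNA of 10 tumor and 10 normal samples was measured on 2-colour oligonucleotide arrays. The deposited values are log2 ratios per probe, which the authors had made before deposit; how they were background-corrected and normalised is not given in the sources used here, and the direction, Cy5 liver over Cy3 reference, is likely but not stated. Dyes were never swapped. Groups were taken from the sample titles. The table gives ratios without brightness, so the number of arrays limits the precision, and p-values measure only the spread between these samples. Of 16512 probes, the platform annotation names 1 symbol for 6088, several for 75 and none for 10349. Probes of a symbol were averaged, which left 15780 features, and 6019 probes were matched to RefSeq by gene identifier. Limma 3.58.1 in R 4.3.3 (lmFit and eBayes) compared the groups over all features, with Benjamini-Hochberg adjustment and a threshold of 0.05, and was tested on simulated data. Spots were counted as dim where, with an array constant removed, the value matched a ratio of integers no larger than 10 to 0.00011 in log2. The members and lists were chosen with earlier results of these data known. Besides the 6 genes, the text names the 3 genes of smallest p in each list and the 5 most and 3 least alike in mean correlation. Others, among them hp, tfa, sec23b, the foxa genes, hnf4a, cebpa, bco1 and the markers, were named after their values were seen. Alternatives were median centring, quantile normalisation, a variance filter, single probes, the dim share as a covariate, array weights, a replicate block, a rank-sum test and leaving out arrays. Promoter and protein sequences were not used here.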

Additional observations from a re-analysis of the deposited data

Results flagged for a closer look

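In each group of 10 arrays the highest and lowest value of the genes named with a difference were checked for an array standing far from the others by Dixon's criterion. This flagged 9 of 104 groups, and chance flags about 1 in 20. Among the 6 plasma protein genes, fetub stood at 0.56 on tumor replicate 9, with the nearest other tumor at -1.48, and mbl2 at 3.36 on tumor replicate 10, with the nearest at 0.51. The hepatocyte regulator hnf4a stood at -2.38 on the same tumor replicate 10, with the nearest tumor at -0.32, and il11ra at -1.03 on tumor replicate 1. In normal livers, bco1 stood at 2.02 on replicate 3, the array with the highest mbl2, with the nearest at 0.58. The same normal replicate 3 was lowest for cst3 at -0.93 and for prox1a at -0.33. Fn1a stood at -2.50 on normal replicate 9, and tfa at -0.94 on normal replicate 1.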

How the results depend on the processing

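The 6 plasma protein genes kept their sign under every alternative run except mbl2 after adjustment for the dim share (0.03) and a2m2d in 7 of 20 fits without 1 array and in both fits without a pair of arrays (0.28 and 0.37). Without each array in turn the differences were -2.50 to -2.17 for cp, -3.24 to -2.78 for fetub, -2.31 to -1.91 for serpinc1, -1.69 to -1.31 for c8g, -1.03 to -0.30 for mbl2 and -0.30 to 0.16 for a2m2d. After adjustment for the dim share the calls over all features were 54 (43 lower, 11 higher), against 1712; 2 plasma protein genes fell and 0 rose, and 0 secretory and 0 regulator genes were called in either direction. Because dim share and group overlap little, their parts cannot be told apart. With array weights 3391 features were called (1426 lower, 1965 higher), 0 plasma protein genes rose, 22 secretory genes rose, and 8 regulators fell and 4 rose. Quantile normalisation gave 1219 lower features and 4 higher regulators, and the larger-variance features gave 6 higher secretory genes. The single risen plasma protein gene, fn1a, was lost (count 0) with array weights, the dim covariate, the replicate block, the rank-sum test, and without tumor replicates 1 and 10 or normal replicate 8 and tumor replicate 10. Without each array in turn, all calls ran from 1358 to 2148 (624 to 994 lower, 715 to 1154 higher), plasma protein genes from 8 to 10 lower and 0 to 1 higher, secretory genes from 6 to 11 higher, and regulators from 4 to 6 lower and 2 to 4 higher. Secretory calls were 6 without tumor replicate 8, normal replicate 4 or normal replicate 10. C3a.2 turned sign at 0.17, 0.048, 0.039, 0.080, 0.0035, 0.15 and 0.072 without 1 array (lowest of the 20 fits -0.46), and at 0.39 and 0.32 without the array pairs. Hnf4a turned at 0.075 with array weights, 0.15 and 0.0056 without 1 array (lowest -0.19), and 0.19 and 0.22 without the pairs. Whether the replicate numbers pair the arrays is not given in the labels. In deviations from the group means, of 10 same-number pairs 2 correlated above 0.1 (-0.152 to 0.122), and 1 tumor correlated best with its own number. Weak correlations of this kind cannot exclude a pairing. With the replicate number as a block 1253 features were called (585 lower, 668 higher). The causes of these changes were not tested, and without brightness the depth behind a ratio is unknown.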

Other observations

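The named features most like the other 4 genes, by correlation over the deviations of the 20 arrays from their group means, were picked after their values were seen and are given as a description. Catalase, cat, which breaks down hydrogen peroxide, was most like cp (r 0.807, with 0.920 in tumors and -0.202 in normal livers). For fetub it was cnot4b (0.818, with 0.846 in tumors and 0.729 in normal livers). Serpinc1 was most like itih3b.1, of the inter-alpha-trypsin inhibitor heavy chains (0.838, with 0.949 in tumors and 0.243 in normal livers), and next like the apolipoprotein E gene apoeb (0.832). C8g was most like smim14 (0.929, with 0.970 in tumors and 0.757 in normal livers), then the fatty acid binding protein gene fabp3 (0.906) and prozb, of the vitamin K dependent protein Z family (0.892).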
